A study of Mus musculus with 8 samples.

Results

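The genes described here are targets of the liver X receptors (LXR) and carriers of sterols in the intestine. They were chosen by name: of 10 listed genes, 8 had probe sets with a single gene symbol on the array (Abca1, Abcg1, Abcg5, Abcg8, Mylip, Nr1h3, Apoe and Pltp), out of 10401 such genes in all. These 8 genes held 11 of the 18443 probe sets, 3 for Abca1, 2 for Pltp and 1 for each of the others. Npc1l1, the carrier that takes cholesterol up at the brush border, and Soat2, which esterifies it inside the enterocyte, are not analysed here.

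Expression was measured in enterocytes isolated from the small intestine of male C57BL/6 mice aged 2.5 to 3.0 months on a standard diet. IE-Cpr-null mice were compared with wild-type (WT) littermates. The null line is known for a Cre recombinase under the villin promoter that deletes Cpr, the electron donor of microsomal P450 enzymes, in the intestinal epithelium and leaves it in other cells; which alleles the WT littermates carried is not stated in the labels, and the transcript of the deleted gene is not analysed here. Each genotype had 4 arrays, each array a pool of RNA from 2 mice, so that all errors below measure the spread between pools of 8 mice per genotype.

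LXRs are nuclear receptors that bind oxysterols, oxidised forms of cholesterol, and switch on genes that move sterol out of the cell. In the enterocyte, cholesterol taken up from the lumen can leave again through the brush border, be exported at the basal side to high-density lipoprotein (HDL), or be esterified and packed into chylomicrons. LXR thereby works opposite to SREBP2, the factor that switches on cholesterol synthesis when sterol is short.

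The deposited values are log2 differences from the WT median of each probe set, so that the level of a gene is unknown and only differences between arrays can be read. Some arrays stood apart in transcripts of other cell types. Hepatocyte transcripts were high in IE-Cpr-null pools 2 and 3 (mean of 13 of 18 listed markers 4.69 and 2.89, against -0.09 to 0.13 on the other 6 arrays). Stromal and muscle transcripts were high in IE-Cpr-null pool 1 (4.48) and WT pool 2 (1.85), and pancreatic acinar transcripts lay between -4.39 and -1.58 in the IE-Cpr-null pools and at -4.17 in WT pool 3, against -0.58 to 1.48 in the other WT pools. The 10 measured of 12 enterocyte markers had array means of -0.10 to 0.01, but with no levels in the table their presence could not be checked. Results that rest on these arrays are given with and without them.

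None of the LXR and sterol transport genes differed between the genotypes beyond the spread of the pools. In limma, 0 of the 11 member probe sets had an adjusted p under 0.05 (adjusted p 0.815 to 0.975), where 0.0217% of all probe sets did (0.0163% higher and 0.00542% lower in IE-Cpr-null). Of the 11, 0 had an unadjusted p under 0.05, where 7.4% of all probe sets did (2.92% higher and 4.47% lower). The groups overlapped in all 11, whereas they did not overlap in 4.11% of all probe sets (1.64% higher and 2.47% lower). A lower mean in IE-Cpr-null was found for 9 probe sets and a higher one for 2, with a median difference of -0.16 against 0.016 over all probe sets, of which 42.5% were lower. Exact two-sided permutation tests over the 70 assignments of the arrays gave p from 0.2 to 0.971, where the smallest possible is 0.0286. Abca1, Mylip and Apoe varied by more than 1 log2 unit between pools of at least 1 genotype, and the other members by less.

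**Figure D1:**
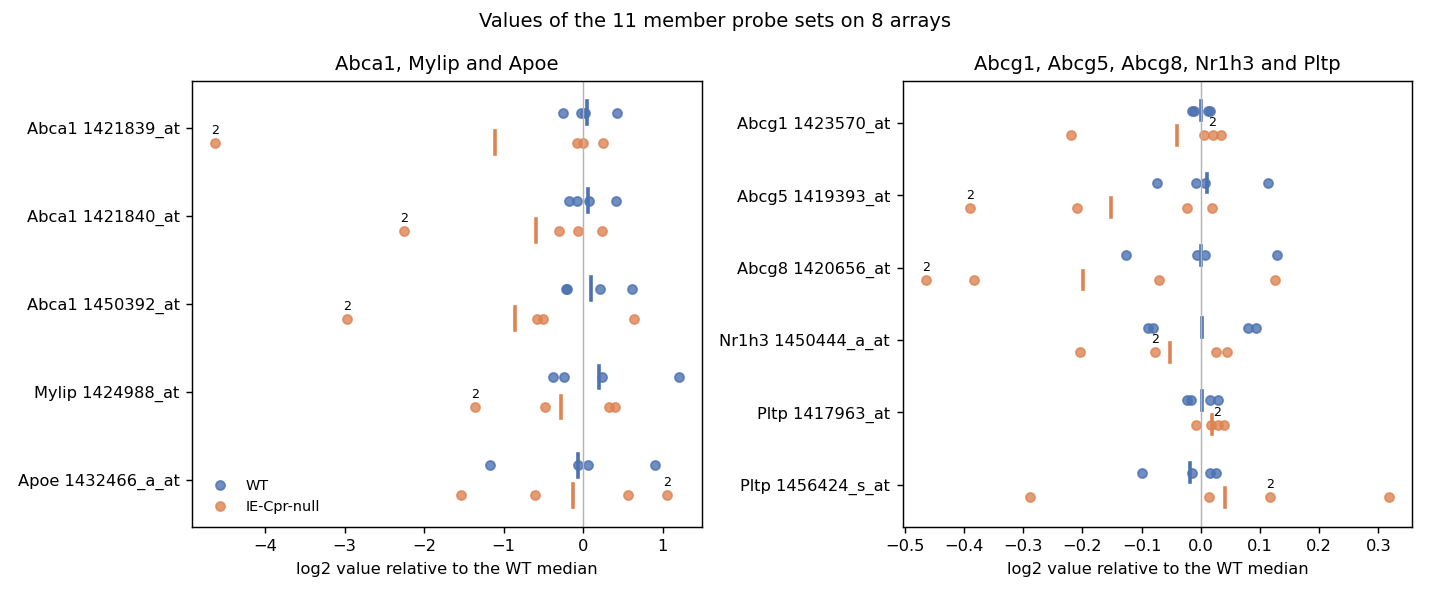
Log2 value relative to the WT median (x axis) of each member probe set (y axis) on the 4 WT (blue) and 4 IE-Cpr-null arrays (orange), with a vertical bar at each group's mean; the digit marks IE-Cpr-null pool 2, and the 2 panels have different x scales. The 2 groups overlap in every row, and pool 2 is the lowest array in the 3 Abca1 rows and in the Mylip, Abcg5 and Abcg8 rows.

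Abca1 carries cholesterol across the basal membrane to apolipoprotein A-I and so begins the making of HDL. In all 3 of its probe sets 1 pool lay far below the others. In probe set 1421839_at the WT pools stood at -0.25, 0.42, -0.03 and 0.03, and the IE-Cpr-null pools at 0.002, -4.63, -0.08 and 0.25. IE-Cpr-null pool 2 thus lay 4.55 below the next lowest IE-Cpr-null pool, and the other 3 lay inside the WT range. In 1450392_at the WT pools stood at 0.21, 0.62, -0.21 and -0.21 and the IE-Cpr-null pools at -0.51, -2.97, -0.57 and 0.64. In 1421840_at the WT values were -0.18, 0.42, 0.08 and -0.08, and the IE-Cpr-null values -0.07, -2.25, -0.30 and 0.23. All 3 probe sets therefore had the same pool as their lowest value, with sizes that differed between them.

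The genotype difference of Abca1 was -1.16 (SE 1.06, limma adjusted p = 0.86, n = 4 pools per genotype) in 1421839_at, -0.95 (SE 0.70) in 1450392_at and -0.66 (SE 0.52) in 1421840_at. Without IE-Cpr-null pool 2 these differences were 0.014 (95% interval -0.38 to 0.41), -0.25 (-1.09 to 0.60) and -0.11 (-0.53 to 0.32). The lower mean of 1421839_at thus rested on that pool, and those of the other probe sets shrank without it. In 1450392_at, IE-Cpr-null pools 1 and 3 (-0.51 and -0.57) also lay below every WT pool. In 1421840_at, IE-Cpr-null pool 3 (-0.30) did so. On that array 17 of the 18443 probe sets stood lower than 1421839_at. The pool also carried the highest hepatocyte mean (4.69) and the lowest macrophage and dendritic cell mean (-0.84); IE-Cpr-null pool 3, with the second highest hepatocyte mean, had Abca1 at -0.08, -0.57 and -0.30. The part of either cell type in the low value was not tested.

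A value below -2 on IE-Cpr-null pool 2 with all 7 other arrays above -1, bounds set after the values were seen, occurred in 15 probe sets, 3 of them the Abca1 probe sets. The 12 others, from -3.47 to -2.01 on that array, were 2 probe sets each of Cipc and Dbp and 1 each of Kcne3, Cldn2, Igkv9-120, Trdmt1, Slc1a1, Slc12a2, Nupr1 and Csf1r. Csf1r, a macrophage receptor and one of the listed macrophage markers, stood at -2.16 in this probe set and at -1.17 on the mean of its 3. The other measured markers of that list were split on this array. C1qa (-3.35), Lyz2 (-1.74), C1qc (-1.32), C1qb (-1.11) and Itgax (-0.52) were low. Adgre1 (-0.08), Aif1 (-0.04), Cd14 (-0.001), Mrc1 (0.016) and Cx3cr1 (0.016) were near 0. The same pattern occurred in 13 probe sets on WT pool 1, 7 on IE-Cpr-null pool 3, 4 on IE-Cpr-null pool 1 and 0 on the remaining 4 arrays. A transcript low on 1 array alone was thus not limited to that pool.

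**Figure D2:**
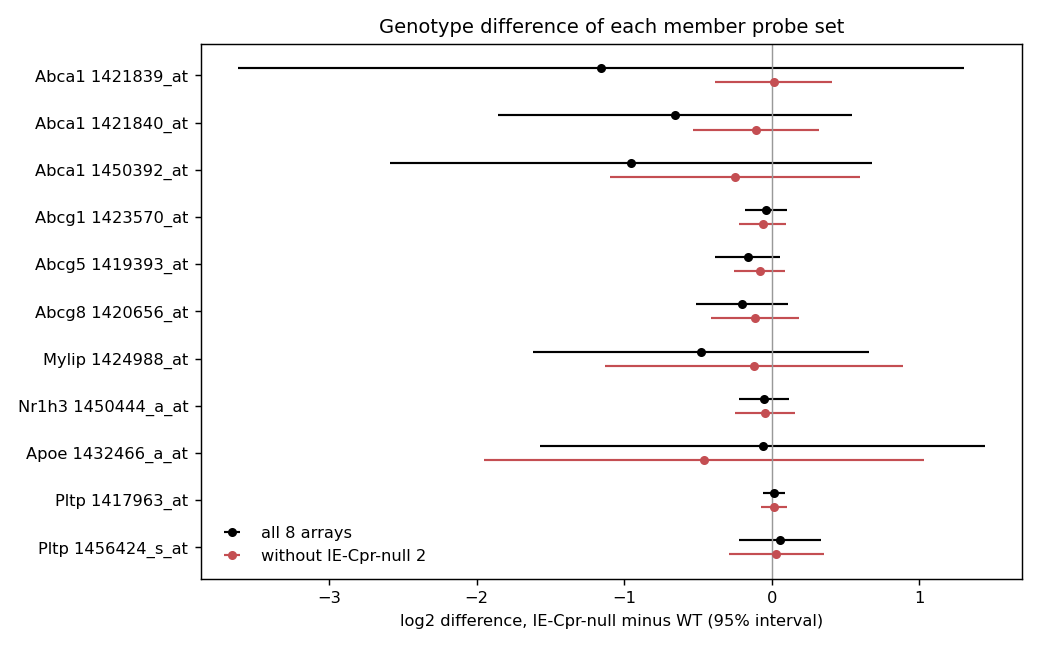
Difference IE-Cpr-null minus WT on the log2 scale (x axis) with its 95% interval from limma for each member probe set (y axis), over all 8 arrays (black) and without IE-Cpr-null pool 2 (red). Every interval includes 0, and the Abca1 interval of 1421839_at shortens from -3.62 to 1.30 with all arrays to -0.38 to 0.41 without that pool.

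The stretch just upstream of Abca1 is shown because it is the member promoter with a match to the LXR-type motif. It is 120 bases at chr4:53159896-53160015 (GRCm38.p6, minus strand, RefSeq), printed 5′ to 3′ and ending next to the transcription start, with the match in capitals.
Abca1 upstream: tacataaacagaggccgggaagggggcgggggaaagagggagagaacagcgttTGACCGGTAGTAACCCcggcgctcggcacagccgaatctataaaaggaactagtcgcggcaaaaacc
LXR with its partner RXR binds 2 copies of the hexamer AGGTCA in direct repeat with 4 bases between them. The relaxed form searched here, 2 copies of NGGTNA with the same spacing on either strand, matched from position -67 to -52 on the opposite strand. In the 250 bases upstream it was found in 1 of 12 member windows (8 genes had a window, Npc1l1 included and Abcg1 and Soat2 not) and in 0.621% of 32851 windows of all genes. The strict form was found in 0 of the 12 and in 0.0152% of all. A match is a description of letters and says nothing of binding in these cells.

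Abcg1, which passes cholesterol on to HDL particles that already hold lipid, differed by -0.041 (SE 0.061, 95% interval -0.18 to 0.10, adjusted p = 0.86). The WT pools lay at 0.015, 0.012, -0.014 and -0.012 and the IE-Cpr-null pools at 0.034, 0.020, -0.22 and 0.005. IE-Cpr-null pool 3 was the low one here, and the other 7 arrays stayed inside the span of the array medians, which ran from -0.025 to 0.036.

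Abcg5 and Abcg8 encode the 2 obligate partners of the pump that returns plant sterols and cholesterol from the enterocyte to the lumen. For Abcg5 the WT pools stood at 0.008, 0.11, -0.07 and -0.008 and the IE-Cpr-null pools at -0.21, -0.39, -0.02 and 0.019. For Abcg8 the WT values were 0.13, 0.007, -0.13 and -0.007, and the IE-Cpr-null values -0.38, -0.46, 0.12 and -0.07. IE-Cpr-null pools 1 and 2 were thus below every WT pool in both genes, and pools 3 and 4 were inside the WT range.

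The genotype difference was -0.16 (SE 0.095, limma adjusted p = 0.815, 95% interval -0.38 to 0.06, or 0.768- to 1.04-fold) for Abcg5 and -0.20 (SE 0.13, adjusted p = 0.86, -0.51 to 0.11, or 0.702- to 1.08-fold) for Abcg8. Without IE-Cpr-null pool 2 it was -0.081 and -0.11. Both low pools held RNA of other tissues, pool 1 with the highest stromal and muscle mean (4.48) and pool 2 with the highest hepatocyte mean (4.69). The next highest pools on those lists were not low. IE-Cpr-null pool 3 (hepatocyte mean 2.89) had Abcg5 at -0.02 and Abcg8 at 0.12. WT pool 2 (stromal and muscle mean 1.85) had Abcg5 at 0.11 and Abcg8 at 0.007. The part of other tissue RNA in the Abcg5 and Abcg8 values was not tested. With the hepatocyte-rich arrays left out, the difference was -0.23 for Abcg8 and -0.11 for Abcg5. With the muscle-rich arrays left out, it was -0.14 for Abcg8 and -0.11 for Abcg5. Without IE-Cpr-null pool 3, where Abcg8 was highest among the IE-Cpr-null pools, the Abcg8 difference was -0.31 (95% interval -0.57 to -0.047, limma adjusted p = 0.483).

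Over the 8 arrays the 2 partners varied together, with Pearson's r = 0.873 (exact permutation p = 0.00776) and Spearman's rho = 0.69 (exact permutation p = 0.0694), the only relation tested this way. Without IE-Cpr-null pools 1 and 2, the arrays farthest from the median of Abcg5, r was 0.209 over 6 arrays, so that the relation rests on those 2 pools. It was 0.459 within the WT pools and 0.89 within the IE-Cpr-null pools, over 4 arrays each. Abcg5 minus Abcg8 stayed between -0.15 and 0.18 on every array. By r, 64 genes were closer to Abcg5 than its partner was and 115 were closer to Abcg8, among 10400. Abca1 was among the 64, with r = 0.881. Without IE-Cpr-null pool 2, r with Abcg5 was 0.663 for Abca1 and 0.759 for Abcg8.

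The genes share a short stretch between their starts, shown because both partners were low in the same pools. Abcg5 is read leftwards and Abcg8 rightwards from it. It is 109 bases at chr17:84683012-84683120 (GRCm38.p6, plus strand, RefSeq), printed 5′ to 3′ in the direction of Abcg8, and a more distal second start of Abcg8 was not used. Capitals mark the GATA box, AGATAA or its reverse complement, the site of intestinal factors such as Gata4.
Abcg5-Abcg8: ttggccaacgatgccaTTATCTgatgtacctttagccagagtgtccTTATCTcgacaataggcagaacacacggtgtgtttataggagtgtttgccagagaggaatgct
The stretch holds 2 matches, and 3.98% of all windows have at least 1 in the 109 bases before the start. No strict or relaxed LXR-type repeat was found there, which says only that those letters are not in this stretch.

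Mylip encodes an E3 ubiquitin ligase that LXR switches on and that limits sterol uptake. The WT pools stood at -0.24, -0.38, 1.2 and 0.24 and the IE-Cpr-null pools at -0.48, -1.36, 0.40 and 0.33. WT pool 3 was the highest and IE-Cpr-null pool 2 the lowest, and the other 6 arrays of both genotypes mixed. The difference was -0.48 (SE 0.49, adjusted p = 0.86, 95% interval -1.62 to 0.66). It was -0.12 without IE-Cpr-null pool 2 and -0.15 without WT pool 3. Macrophage and dendritic cell markers, 11 of 15 measured, were also highest in WT pool 3 (mean 0.75) and lowest in IE-Cpr-null pool 2 (-0.84). Other arrays differed: IE-Cpr-null pools 3 and 4 had marker means of -0.21 and -0.51 with Mylip at 0.40 and 0.33. Crypt and Paneth markers, 5 of 8 measured, were lowest in IE-Cpr-null pool 2 as well (mean -0.81). Among the WT pools their mean was highest in pool 3 (0.63), but it stood at 1.56 in IE-Cpr-null pool 1. The part of either set of cells in the Mylip values was not tested.

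Nr1h3, which encodes the receptor LXRα itself, stood at 0.08, -0.09, 0.09 and -0.08 in the WT pools and at -0.20, -0.08, 0.03 and 0.04 in the IE-Cpr-null pools. The difference was -0.054 (SE 0.073, adjusted p = 0.86, 95% interval -0.22 to 0.12). IE-Cpr-null pool 2, lowest for Abca1, lay inside the WT range for its receptor. Nr1h2, which encodes the other receptor LXRβ, is not analysed here.

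Apoe, the apolipoprotein through which remnant particles are cleared, is made in quantity by hepatocytes and macrophages. The WT pools stood at -1.18, -0.06, 0.90 and 0.06, and the IE-Cpr-null pools at -0.60, 1.06, 0.57 and -1.54. Both groups spanned over 2 log2 units (2.08 in WT and 2.60 in IE-Cpr-null), and their means differed by -0.061 (SE 0.65, adjusted p = 0.975, 95% interval -1.57 to 1.45). An interval that runs from 0.337- to 2.73-fold leaves the direction of any Apoe difference unknown.

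Of the 11 measured macrophage and dendritic cell markers, 4 had the full WT order of Apoe, rising from pool 1 through pools 2 and 4 to pool 3. The other 7 had another order, though Lyz2 and Aif1 among them were also lowest in pool 1 and highest in pool 3. The 4 were Csf1r and the complement genes C1qa (-1.38, -0.51, 1.5 and 0.51), C1qb and C1qc (-1.19, -0.23, 2.04 and 0.23). Genes of other lists had this full WT order too, such as Ppara (-1.28, -0.10, 0.15 and 0.10) and Pyy (-0.28, -0.05, 0.53 and 0.05). The order was thus not particular to macrophage markers, and its share over all genes is not given here. Among the IE-Cpr-null pools C1qa stood at -1.44, -3.35, -0.53 and -1.37, lowest in pool 2, where Apoe was highest. The 2 IE-Cpr-null pools with high Apoe were those rich in hepatocyte transcripts, in which Alb, the albumin gene, stood at 9.32 and 7.91 and the neighbouring apolipoprotein gene Apoc1 at 5.75 and 4.20. Without those 2 arrays the Apoe difference was -1.0 (SE 0.59, adjusted p = 0.781). Whether hepatocyte or macrophage RNA set the Apoe values was not tested, and in pooled tissue fewer cells of a type and less RNA per cell cannot be told apart.

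**Figure D3:**
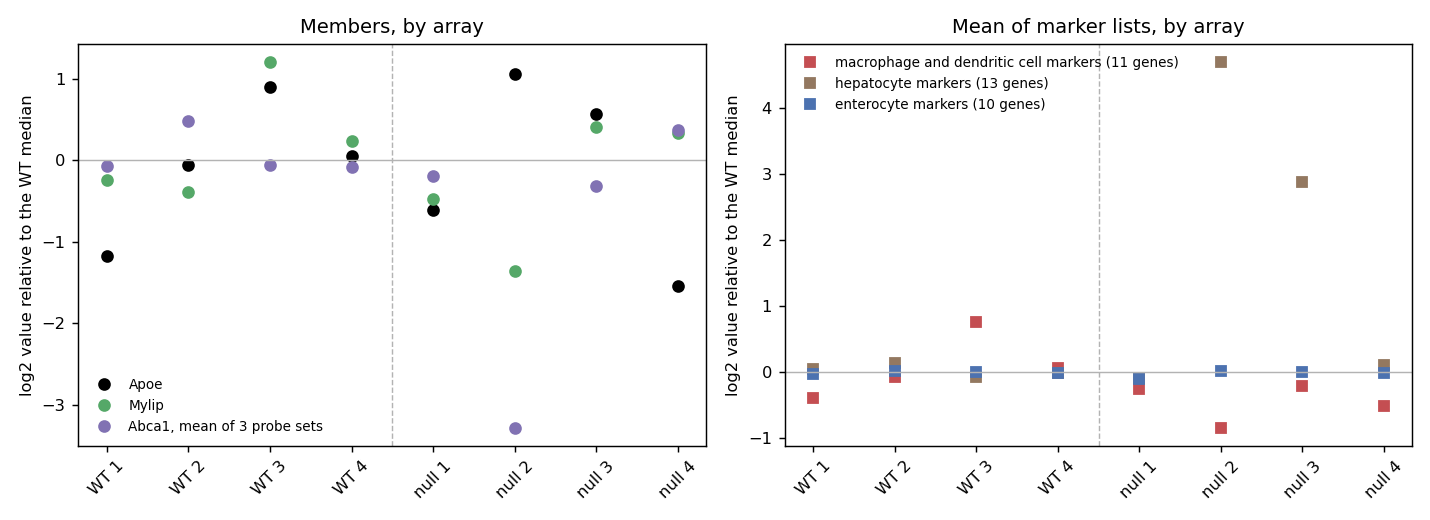
Log2 value relative to the WT median (y axis) on each of the 8 arrays (x axis, 4 WT pools left of the dashed line and 4 IE-Cpr-null pools right of it) for Apoe, Mylip and the mean of the 3 Abca1 probe sets (left panel) and for the mean of 3 marker lists (right panel). IE-Cpr-null pool 2 has the lowest Abca1 and Mylip, the highest Apoe, the lowest macrophage mean (-0.84) and the highest hepatocyte mean (4.69), while the enterocyte mean stays between -0.10 and 0.01.

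Pltp transfers phospholipid between lipoproteins, and its 2 probe sets differed in how much they varied. In 1417963_at the WT pools lay at 0.029, 0.016, -0.023 and -0.016 and the IE-Cpr-null pools at 0.039, 0.028, -0.008 and 0.017, within 0.009 of the median of their array throughout. Only 0.857% of all probe sets kept closer to the array medians, so that this probe set carried no difference of its own. In 1456424_s_at, whose probes can match more than 1 transcript, the WT values were 0.025, 0.016, -0.016 and -0.099, and the IE-Cpr-null values 0.32, 0.12, -0.29 and 0.014, so that the IE-Cpr-null pools lay on both sides of the WT pools. The differences were 0.018 (SE 0.031, adjusted p = 0.863) and 0.059 (SE 0.12, adjusted p = 0.869).

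The members differed in how much they varied over the 8 arrays. The SD of a gene's mean was 1.2 for Abca1, 0.95 for Apoe and 0.76 for Mylip, larger than in 99%, 98.7% and 97.9% of all genes. It was 0.22 for Abcg8 and 0.16 for Abcg5, above 80.7% and 66.9% of all genes. It was 0.10 for Nr1h3, 0.095 for Pltp and 0.082 for Abcg1, below the median of all genes of 0.112. For the members above that median, the closest gene by Pearson's r over the 8 arrays was Cask for Abca1 (0.980), Srd5a3 for Abcg5 (0.987), Atraid for Abcg8 (0.980), Cdkn2aipnl for Mylip (0.951) and Dag1 for Apoe (0.940). Next came Thoc2l and Hnrnpll for Abca1, Rdh14 and Ugt2a3 for Abcg5, Coa6 and Psma2 for Abcg8, Tmem159 and Rb1 for Mylip, and Ablim1 and Tcf25 for Apoe. The arrays share their pools and some highest value is found among so many genes, so these are descriptions. Without IE-Cpr-null pool 2 the r of Abca1 with Cask was 0.549, while that of Abcg5 with Srd5a3 was 0.963.

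The wider LXR pathway was read from 7 related lists, SREBP2 targets included. In all, 76 of 99 genes were measured, on the mean of each gene's probe sets. Of these, 1 gene had an adjusted p under 0.05, the SREBP2 target Sqle, where 0.0288% of all genes did. An unadjusted p under 0.05 was found for 17, where 8.69% of all genes had it (3.27% higher and 5.42% lower). SREBP2 targets made up 6 of the 17, all higher. Other LXR targets gave 1 higher and 2 lower, and receptors and cofactors 1 lower. Oxysterol enzymes gave 3 lower, and sterol uptake and trafficking 1 higher and 3 lower. Among 17 measured other LXR targets, 0 passed, 8 were higher and 9 lower, and the median was -0.008. Scd2, a stearoyl-CoA desaturase, had the smallest p, with WT pools at -0.43, -0.39, 1.09 and 0.39 and IE-Cpr-null pools at 2.28, 1.28, 1.70 and 2.00 (difference 1.65, SE 0.37, limma adjusted p = 0.256). All its IE-Cpr-null pools lay above all WT pools, as in 1.85% of all genes, where 4.85% did not overlap in either direction.

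Srebf1, whose product SREBP1c drives fatty acid synthesis under LXR, lay at -0.08, -0.09, 0.12 and 0.08 in the WT pools and at -0.28, -0.19, -0.09 and -0.34 in the IE-Cpr-null pools. The groups only just failed to touch (-0.0934 in the lowest WT pool and -0.0940 in the highest IE-Cpr-null pool), and the difference was -0.23 (SE 0.073, adjusted p = 0.41). Apoc1 had the largest difference, 2.47 (SE 1.31, adjusted p = 0.688), all of it from the 2 hepatocyte-rich pools; without them it was -0.009. The other LXR targets thus showed no shared direction.

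The list of oxysterol enzymes and their electron carriers had 5 of 11 genes measured, of which 0 passed. They were Cyp27a1, Cyp7b1, Hsd3b7, Sult2b1 and Fdx1, and not all of them make LXR ligands. Cyp27a1 makes a side-chain oxysterol in mitochondria, where it takes electrons from the ferredoxin Fdx1 and not from Cpr. Its WT pools stood at 0.06, -0.40, 0.04 and -0.04 and its IE-Cpr-null pools at -0.49, -1.18, -0.61 and -0.53. Every IE-Cpr-null pool lay below every WT pool, as in 3% of all genes, with a difference of -0.62 (SE 0.17, unadjusted p = 0.00803, adjusted p = 0.349). Fdx1, added after its values were seen, also did not overlap, with WT pools from -0.17 to 0.21 and IE-Cpr-null pools from -0.49 to -0.18 (difference -0.31, SE 0.097, adjusted p = 0.41). IE-Cpr-null pool 2 was the lowest array for both, and without it the difference of Cyp27a1 was -0.46.

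Among 10 of 13 receptors and cofactors, 0 passed. Ncoa1, a coactivator of nuclear receptors, had WT pools from -0.02 to 0.07 and IE-Cpr-null pools from -0.30 to -0.11 (difference -0.20, SE 0.048, adjusted p = 0.276), and Nrip1, a corepressor, differed by 0.21 (SE 0.18), or by 0.026 without WT pool 1. Among 20 of 24 genes of sterol uptake and trafficking, 0 passed. Lipa, the lysosomal lipase that frees cholesterol from its esters, differed by -0.31 (SE 0.11, adjusted p = 0.444), and Cel, a pancreatic cholesterol esterase, by -2.98 (SE 1.11, adjusted p = 0.496). Cel stood at -3.90 in WT pool 3 and moved with the pancreatic acinar list, whose part was not tested. Chylomicron and HDL assembly had 0 of 9 measured past the threshold, with a median of -0.022 and Dgat2, an enzyme of triglyceride synthesis, at -0.18 (SE 0.10), or -0.11 without WT pool 3.

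Regulators of the sterol carriers gave 0 of 9 past the threshold. Hnf4a, an activator of the shared Abcg5 and Abcg8 promoter, differed by 0.15 (SE 0.069, adjusted p = 0.61), Nr0b2, a corepressor of nuclear receptors, by -0.54 (SE 0.29; -0.29 without IE-Cpr-null pool 3 and -0.36 without WT pool 2), and Srebf2 by 0.24 (SE 0.12, adjusted p = 0.648). SREBP2 targets, 6 of 10 measured, were all higher without overlap, as in 1.85% of all genes, with a median of 0.69 against -0.11 for the 8 member genes and 0.016 for all genes. Sqle, squalene epoxidase, alone passed (difference 1.34, SE 0.12, limma adjusted p = 0.0184). Its difference stayed between 1.24 and 1.45 over 16 alternatives, but the call held in only 7 of them (adjusted p 0.00136 to 0.933) and was lost without the hepatocyte-rich arrays (0.115), without the muscle-rich arrays (0.0846) and with the replicate block (0.236). On IE-Cpr-null pool 2, where Abca1 was lowest, Sqle stood at 1.25 against 1.36 to 1.57 in the other IE-Cpr-null pools.

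**Figure D4:**
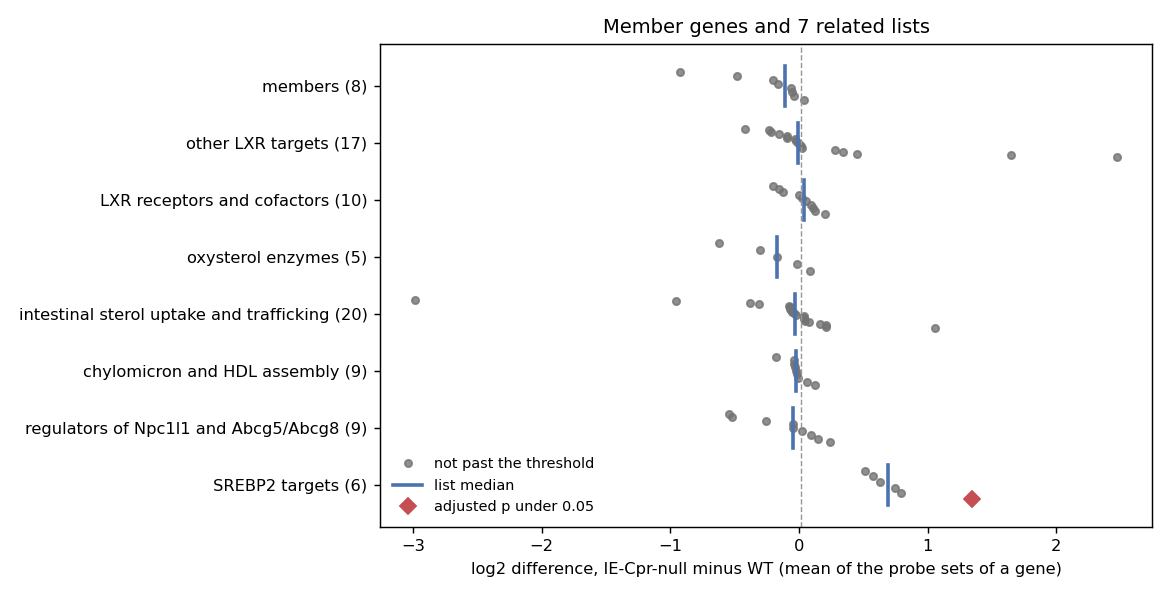
Difference IE-Cpr-null minus WT on the log2 scale (x axis) for each gene of the member set and of 7 related lists (y axis, number measured in brackets), with the list median as a blue bar, the median of all genes as a dashed line and genes with adjusted p under 0.05 as a red diamond. The 8 members have a median of -0.11 and the 6 SREBP2 targets one of 0.69, and Sqle is the diamond.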

How the data were processed

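Per the submitters' processing notes, GCRMA was used; its version is not stated in the labels. The authors deposited 1 log2 value for each probe set and array. Every probe set had a WT median of 0 (within 9.5e-07), so the deposited values were centred on it and levels and signal over background are unknown. GCRMA's handling of dim probe sets could not be checked without levels. Probe sets were named from the platform annotation.

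Each probe set was fitted with limma 3.58.1 in R 4.3.3 (2 group means, no block, prior degrees of freedom 1.54, two-sided) over all 18443 probe sets with Benjamini-Hochberg adjustment and a threshold of 0.05, and lists on the mean of a gene's probe sets over 10401 genes. Intervals are 95%. The fit was tested on simulated data with independent normal errors, which held no RNA of other tissues and no single low pools. Named genes were all members and, per list, those past the threshold, otherwise those with the smallest p and the largest difference, plus Srebf1 and Srebf2. The members and lists were chosen with earlier results of these data known. Marker lists were averaged per array. The labels give no batch or scan. Titles number the pools 1 to 4 in each genotype; deviations of same-numbered pools correlated at -0.058, -0.041, 0.256 and 0.131, so the numbers were not taken as pairs. Whether p-values cover more than the spread between these pools is not known. Sequences are RefSeq's for GRCm38.p6.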

Additional observations from a re-analysis of the deposited data

Results flagged for a closer look

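A single pool far from the other 3 of its group was looked for in 50 groups of 4 values, the member probe sets and the genes named from the lists, and 2 were found, where chance marks about 1 in 20. The first was Abca1 1421839_at in IE-Cpr-null pool 2, at -4.629 with the other 3 pools between -0.081 and 0.251. The second was Abcg1 1423570_at in IE-Cpr-null pool 3, at -0.22 with the others between 0.005 and 0.034.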

How the results depend on the processing

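The count of 0 member probe sets past the threshold held under quantile normalization, median centring, array weights, a robust prior, the replicate block, each array left out, the muscle-rich (WT 2 and IE-Cpr-null 1) or hepatocyte-rich arrays (IE-Cpr-null 2 and 3) left out, probe sets with shared probes left out, a 1.5-fold minimum and unadjusted p. Abcg5, Abcg8, Mylip and Pltp 1417963_at kept their direction in all 15 alternatives run per probe set. Their sizes moved: array weights took Mylip from -0.48 to -0.058, Abcg5 from -0.16 to -0.036, Abcg8 from -0.20 to -0.094, Abca1 1421839_at from -1.16 to -0.27 and Apoe from -0.061 to -1.16. Without the hepatocyte-rich arrays the sign turned for Abca1 1421839_at (0.083) and 1421840_at (0.024), Abcg1 (0.019) and Apoc1 (-0.009). Without the muscle-rich arrays it turned for Apoe (0.101) and Pltp 1456424_s_at (-0.023). Array weights turned Abca1 1450392_at (0.201) and Nr1h3 (0.062), and quantile normalization turned Nr1h3 (0.011). With 1 array left out, the difference ran from -1.613 to 0.014 for Abca1 1421839_at, -0.065 to 0.019 for Abcg1, -0.457 to 0.41 for Apoe and -0.034 to 0.168 for Pltp 1456424_s_at. The count of member probe sets whose groups did not overlap was 1 with median centring (Pltp 1417963_at) and 0 to 1 with 1 array left out (1 without IE-Cpr-null 4, Abca1 1450392_at). Of the pathway genes, the count past the threshold, 1 as reported, was 13 with array weights and 17 at unadjusted p, an alternative chosen after seeing the data. The share of all genes past the threshold with array weights is not given here, so the 13 cannot be read against it. The pathway count was 0 with quantile normalization, the replicate block, or the muscle-rich or hepatocyte-rich arrays left out, and 0 to 2 with 1 array left out. It was 0 without WT 1, 2 or 4 or IE-Cpr-null 3 or 4, and 2 without IE-Cpr-null 1. The cause of these shifts was not tested. The pool numbers of the titles were not taken as pairs, and whether same-numbered pools were paired is not known. The replicate block ended the Sqle call (limma adjusted p = 0.236). The 4 arrays per genotype limit the precision, and the centred values hide which probe sets lay near background.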
